A study of Danio rerio with 4 samples.

Results

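The Fox, Sox, Pax, Gata and Hnf genes encode DNA-binding proteins that set and keep the identity of tissues, and 120 of the 31953 genes in the count table belong to them. They were taken by symbol: fox with a letter from a to s (foxred left out), and sox, pax or gata with a digit. Symbols with hnf were taken for certain digits only. There are 63 Fox, 28 Sox, 15 Pax, 8 Gata and 6 Hnf genes. The rule also takes sox2ot, a noncoding transcript named after its neighbour SOX2. Many symbols are written in human capitals, and 32 of the 120 genes share a symbol with a duplicate copy, so these are told apart by their Ensembl identifiers.

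The samples are zebrafish at 5 days of age (120 h after fertilisation), and every library is described as a pool of whole larvae. The mutant group (2 libraries) carries the hi272 allele of uhrf1, whose product recruits Dnmt1, the enzyme that copies DNA methylation onto new strands. The sibling group (2 libraries) holds larvae of the same clutches sorted as normal by their appearance, so carriers of the allele are not told apart, and their sample names carry the word ABNYU. Between 10 and 20 larvae from 2 clutches were used, 1000 ng of RNA was taken per library, ribosomal RNA was removed and 75 bp reads were made from a single end. The question is how the transcripts of mutants differ from those of their siblings. UHRF1 had 7 and 9 mutant reads against 2 and 17 sibling reads, so it does not check the genotype labels at this depth.

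Forkhead proteins of the FoxA class open closed chromatin for endoderm genes, and with Hnf4 and Gata4 to Gata6 they switch on the genes of liver, gut and pancreas. SoxB1 proteins maintain neural progenitors, and SoxC proteins act as those cells become neurons. SoxE, Pax3 and Pax7 act in the neural crest and its derivatives, Pax6 in eye and brain, and Gata1 to Gata3 in blood and lymphoid cells.

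The tissue labelled on the sibling libraries did not match their markers. Hepatocyte markers (22 genes) made up 0.682% and 0.393% of mutant gene reads but 24.7% and 19.4% of sibling gene reads. Exocrine pancreas markers (15 genes) took 0.00437% and 0.00443% of mutant reads, against 0.0626% of sibling replicate 1 and 16.2% of sibling replicate 2. Skeletal muscle markers (20 genes) made up 6.71% and 6.03% of mutant reads against 0.0375% and 0.0160%. Neuron markers reached 780 and 757 mutant reads and only 3 and 4 sibling reads, and in the siblings 11 of 15 such genes, 13 of 17 lens genes and 16 of 20 photoreceptor genes were at 0. The siblings are therefore called the libraries labelled sibling. The makeup of the tissue and the genotype cannot be told apart in any value below, nor can fewer cells of a type and less RNA per cell. Gene reads per library were 571978 and 564941 (mutants) and 613370 and 812167 (siblings).

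Across the 4 libraries the lineage factors fell into opposite groups. Factors of liver, gut and endoderm had more reads in the libraries labelled sibling, and most other members had more in the mutants. The 120 genes together collected 1115 and 1175 mutant reads and 368 and 248 sibling reads. As a share of gene reads that is 0.195% (Wilson 95% interval 0.184% to 0.207%) and 0.208% (0.196% to 0.220%) against 0.0600% (0.0542% to 0.0664%) and 0.0305% (0.0270% to 0.0346%). These intervals cover counting error only. The 15 genes assigned to liver, gut and endoderm made up 4.39% (3.34% to 5.76%) and 3.06% (2.22% to 4.21%) of the member reads of the mutants. Their part was 54.3% (49.2% to 59.4%) and 53.6% (47.4% to 59.7%) in the siblings, a proportion that no scaling of the libraries can move.

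**Figure D1:**
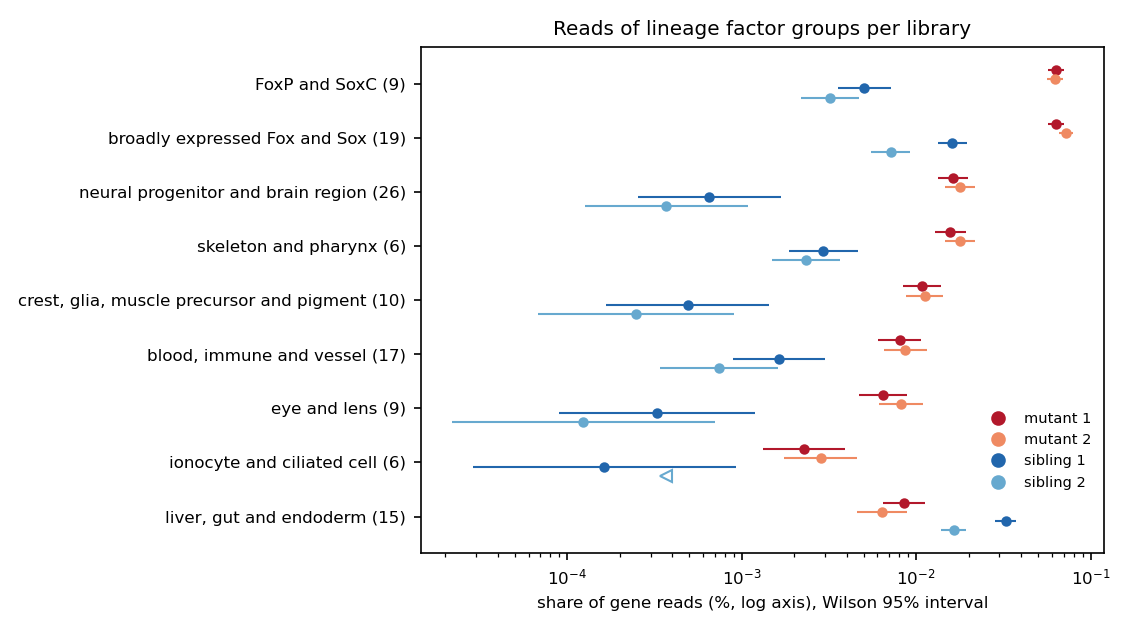
Share of gene reads (%, log axis) taken by 9 groups of lineage factors in each of the 4 libraries, with Wilson 95% intervals. The number of genes is in brackets. The group marked FoxP and SoxC leaves out foxp3a, foxp3b and sox12, which are counted in other groups. The open triangle marks the upper limit that a count of 0 allows (3 reads). The liver, gut and endoderm group is the one in which both sibling points lie above both mutant points.

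Reads are few for most members, so much of the description rests on counts. No read was seen for 13 members in any library, 52 had reads in mutants only and 1 in siblings only. More genes of every kind had a read in the mutants, 21018 and 21135 against 14160 and 14397 in the siblings. How many of all genes had reads in 1 group only was not counted. In every library 79 members had under 10 reads. The default count filter of edgeR left 25 members and set 95 aside. Of the 25, 17 rose, 2 fell and 6 did not pass (quasi-likelihood test of edgeR, p adjusted by Benjamini-Hochberg over 8133 genes, threshold 0.05). Among all tested genes 35.2% were called higher and 25.8% lower. The median log2 fold change, mutant over sibling, was 1.78 over the 25 members and 0.48 over all tested genes. Of the 25 members 18 reached the filter's cutoff in the mutant libraries alone. Of these 15 were called higher, and 4 had no sibling read. Of all 4597 tested genes at the cutoff in the mutant libraries alone, 2652 were called higher. All 776 tested genes with no sibling read were called higher, so the calls of the 4 add nothing to their reads. GATA6 and HNF4A reached the cutoff in the sibling libraries alone. Of all 594 tested genes that did so, 579 were called lower. The counts and the median are therefore a description of the members that passed. Every called member except FOXP4 and foxo3b passed through 1 group alone, so its adjusted p below is descriptive too. For the 5 that reached the cutoff in a library of each group, 2 were called higher (FOXP4 and foxo3b) and 0 lower. Of all 2942 tested genes of that kind, 209 were called higher and 1515 lower. With total-read scaling, where 67.6% of tested genes were called higher and 12.6% lower, 21 members were higher and 2 lower, and the 4 gained were FOXK1, FOXO4, SOX5 and foxp1a.

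The number of calls depends on the libraries kept. Without mutant replicate 1 the calls were 1 higher and 1 lower (4.23% and 10.9% of all genes tested), and without mutant replicate 2 they were 2 and 3 (8.32% and 14.3%). Without sibling replicate 1 they were 9 and 3 (16.5% and 19.4%), and without sibling replicate 2 they were 14 and 8 (23.6% and 21.9%). Only 2 of the 19 called members, HNF4A and FOXP4, kept their call whichever library was left out. Such fits take the spread of a lone library from the other group. No label says which clutch a library came from, so every p-value reflects only how far these 4 libraries differ, which may be technical.

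HNF4A and GATA6 were the 2 members that fell. Both passed the count filter through their sibling counts alone, where 579 of 594 genes were called lower. Their adjusted p is therefore descriptive. HNF4A (ENSDARG00000021494), the nuclear receptor that drives much of the hepatocyte programme, had 8 and 1 mutant reads against 69 and 30 in the libraries labelled sibling. As CPM (read counts divided by the TMM-scaled gene reads of the library, in units of 1000000) these are 7.98 and 0.987 against 172 and 76.1. The groups did not overlap, and the log2 fold change was -4.74 ± 0.64 (SE, n = 2 libraries per group; edgeR adjusted p = 0.00013). When 1 library was left out it lay between -6.59 and -3.79, with an adjusted p of at most 0.0402, but without the count filter the adjusted p was 0.0505. GATA6 (ENSDARG00000103589), a zinc finger factor of liver, pancreas and heart, had 4 and 3 mutant reads against 15 and 27 sibling reads. It changed by -3.86 ± 0.54 (edgeR adjusted p = 5.02e-05). Its adjusted p was 0.0512 without mutant replicate 1 and 0.0547, with a log2 fold change of -1.21, when libraries were scaled to ribosomal protein genes.

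The Hnf4 copies hnf4b and HNF4G, nuclear receptors related to HNF4A, did not reach the count filter, and both had higher CPM in both sibling libraries than in either mutant. The gene hnf4b had 5 and 4 mutant reads against 14 and 8. HNF4G had 0 and 1 against 8 and 5. Without the count filter, where 6.45% of 23859 genes were called higher and 6.13% lower, their adjusted p was 0.0551 and 0.0534 (edgeR).

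Of the FoxA genes, foxa3 (ENSDARG00000012788) had 3 reads in each mutant library and 12 and 11 in the siblings, so that replicates were within 1 read of each other. Without the count filter it fell by 2.88 ± 0.35 on the log2 scale (edgeR adjusted p = 0.0204). FOXA2, which also marks the floor plate of the spinal cord, had 2 and 1 mutant reads against 13 and 6. FOXA1 had 1 and 4 against 7 and 3, and its groups overlapped as shares of gene reads. The 4th gene, foxa, had a single read in mutant replicate 2. Among Gata factors of heart and endoderm, gata4 had 2 and 1 mutant reads against 3 and 4, and GATA5 had 6 and 3 against 6 and 2 with overlapping groups. SOX17 and sox32, which act in the first endoderm of the gastrula, had 2 reads and 0 reads over all libraries.

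**Figure D2:**
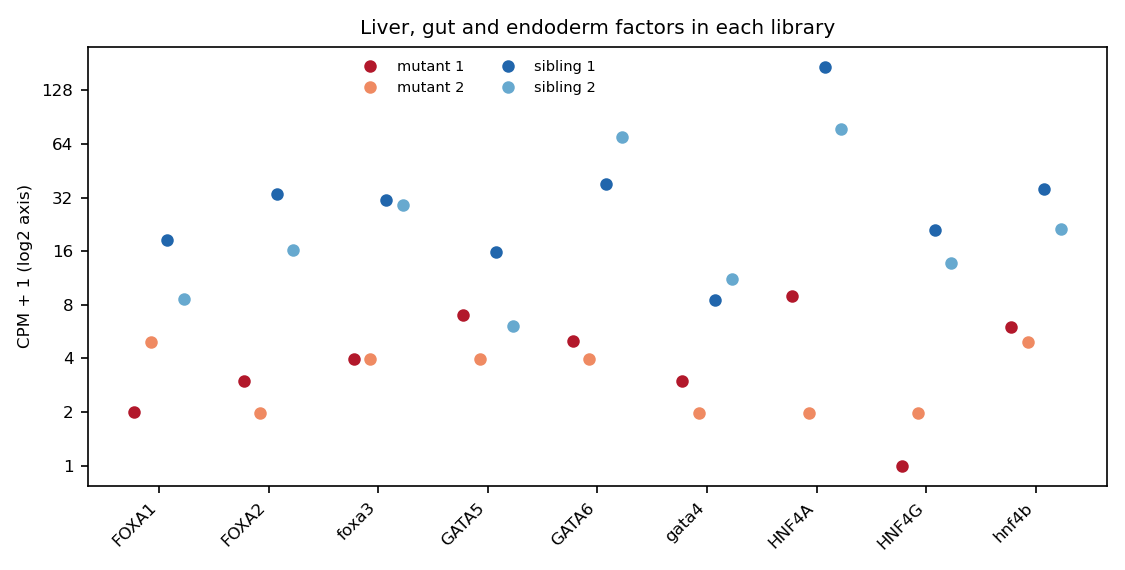
CPM + 1 (log2 axis) of 9 liver, gut and endoderm factors with more than 3 reads, 1 point per library. Both sibling points lie above both mutant points for every gene except GATA5. HNF4A has the highest sibling values, 172 and 76.1 CPM.

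The sibling libraries differed in the CPM of some of these factors. HNF4A and FOXA2 were higher in sibling replicate 1, with 172 and 32.3 CPM against 76.1 and 15.2 in replicate 2. GATA6 was higher in sibling replicate 2, with 68.5 CPM against 37.3. In reads of sibling replicates 1 and 2 these are 69 and 30 for HNF4A, 13 and 6 for FOXA2, and 15 and 27 for GATA6. The gene foxa3 had 12 and 11, and the part of the whole group in member reads was 54.3% and 53.6%. Whether the gaps exceed counting error was not tested. Replicate 2 is the library with nearly all exocrine pancreas reads (131826 against 384 in replicate 1). Whether the pancreas RNA contributes to the GATA6 values was not tested.

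Of the 14 liver, gut and endoderm members with a read, 11 had lower CPM in both mutants than in either sibling and 0 had higher. Of all genes with a read 22.6% were lower and 38.6% higher in this sense. As unscaled shares of gene reads 9 of the 14 were lower in both mutants, against 8.87% of all genes, where 61.3% were higher. In group means the direction of the summed reads was kept under 3 scalings. The log2 ratio was -3.31 with TMM, -1.71 with total gene reads and -0.70 with ribosomal protein genes. With the last scaling the libraries of the groups overlapped. Mutant replicate 1 had 49 reads of these factors beside 18602 ribosomal protein reads. Sibling replicate 2 had 133 beside 53589, a lower ratio. Single genes were less firm. Of 12 with reads in both groups, 12 were below 0 with TMM, 11 with total reads and 8 with ribosomal protein scaling. Those above 0 in the last included FOXA1, gata4 and GATA5, at 0.24, 0.11 and 1.37.

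The factors and the hepatocyte transcripts moved by different amounts. Summed reads of the liver, gut and endoderm factors were 9.89-fold lower in the mutants with TMM scaling, and summed hepatocyte markers were 128-fold lower. Per 1000 hepatocyte marker reads, the mutant libraries had 12.6 and 16.2 reads of these factors and the sibling libraries 1.32 and 0.846. The groups did not overlap in this ratio, which no scaling moves. Intestinal markers, whose cells use several of the same factors, had 398 and 301 mutant reads in sum against 1402 and 1061. Single genes of this list went both ways, with 4 called higher and 3 lower of 9 tested. Among all tested genes 35.2% were called higher and 25.8% lower. The part of intestine and kidney in the remaining factor reads was not tested.

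FoxP and SoxC genes were among the most read of the factors that were higher in the mutants. Of the members called higher, here and below, all but FOXP4 and foxo3b passed the count filter through their mutant counts alone. FOXP4 (ENSDARG00000076120), a forkhead repressor found in brain and gut, had 167 and 169 mutant reads against 16 and 12 sibling reads, the most reads of any member. Its log2 fold change was 2.24 ± 0.35 (edgeR adjusted p = 0.000148), and 2.09 to 2.48 when 1 library was left out. Its relative foxp1b had 41 and 33 reads against 6 and 5 and rose by 1.40 ± 0.44 (edgeR adjusted p = 0.0148). That call was not kept with DESeq2 (DESeq2 adjusted p = 0.111). When 1 library was left out the log2 fold change of foxp1b was 1.32 to 1.68. The copy foxp1a had 20 and 25 reads against 6 and 3 and did not pass, at 0.97 ± 0.52 (edgeR adjusted p = 0.121), but was at 2.60 with total-read scaling (edgeR adjusted p = 0.0014). FOXP2, known for its part in motor circuits of the brain, had 28 and 12 mutant reads and 0 in both siblings. That is at least 5.28-fold higher against a floor of 3 reads over the group. Here and below such a bound allows for the counting error of the 0 only.

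The SoxC genes are switched on in newly made neurons. SOX4 (ENSDARG00000004588) had 71 and 55 mutant reads against 1 and 3, a rise of 3.59 ± 0.55 (edgeR adjusted p = 0.000109). A duplicate copy of SOX4 (ENSDARG00000098834) had 8 and 22 reads against 0 and 1 and was not tested. SOX11 (ENSDARG00000077811) had 19 and 27 reads against 1 and 2 and rose by 2.54 ± 0.67 (edgeR adjusted p = 0.00543). Summed over the 6 SoxC genes there were 113 and 124 mutant reads against 4 and 6. The sums of the 6 FoxP genes were 256 and 239 against 28 and 20, with no read for the 2 copies of foxp3, the factor of regulatory T cells. All 12 genes stood beside neuron markers that were 86.6-fold higher in sum with TMM, and the part of nerve tissue in their values was not tested.

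Neural progenitor factors had few or no reads in the sibling libraries. The 6 SoxB1 genes had 30 and 39 mutant reads and 0 in both siblings, at least 9.08-fold higher in sum. SOX2, the best known of them, had 16 and 11 of these reads, at least 3.56-fold higher against the floor, and was not called without the count filter (edgeR adjusted p = 0.0622). SOX2 is named here after its values were seen, and its reads may not be fully separated from those of the overlapping sox2ot (1 read in each mutant). The 3 SoxB2 genes, which oppose SoxB1 in neural progenitors, had 6 and 8 reads against 0. PAX2 (ENSDARG00000028148), a factor of kidney tubule, optic stalk and the boundary of midbrain and hindbrain, had 18 and 11 reads against 1 and 0. It rose by 3.34 ± 0.92 (edgeR adjusted p = 0.00677), but it passed in none of the 3 fits without a library in which it could be tested, with adjusted p between 0.0679 and 0.132. The FoxG genes of the forebrain had 9 and 20 reads in sum against 0 and 1, of which foxg1b had 5 and 16.

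In the eye and crest groups the same order was seen. PAX6 (ENSDARG00000045936), the factor that starts eye formation, had 26 reads in each mutant library and 0 and 1 in the siblings, a rise of 4.18 ± 0.84 (edgeR adjusted p = 0.000934). Without mutant replicate 1 or 2 its adjusted p was 0.0941 and 0.0687. A duplicate copy (ENSDARG00000103379) had 8 and 14 reads against 1 and 0. PAX7 (ENSDARG00000070818), active in pigment cell precursors and muscle stem cells, had 20 and 16 reads against 0, at least 4.74-fold higher against the floor. The 4 genes of Pax3 and Pax7 had 35 and 33 reads in sum against 0 and 1. The SoxE genes, which act in crest, glia and cartilage, had 27 and 30 against 3 and 1, among them SOX10 with 3 reads in each mutant and 0 in the siblings. Across the 15 Pax genes the sums were 103 and 104 against 3 and 2, a ratio of 16.4 with TMM, the highest of the 5 families.

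**Figure D3:**
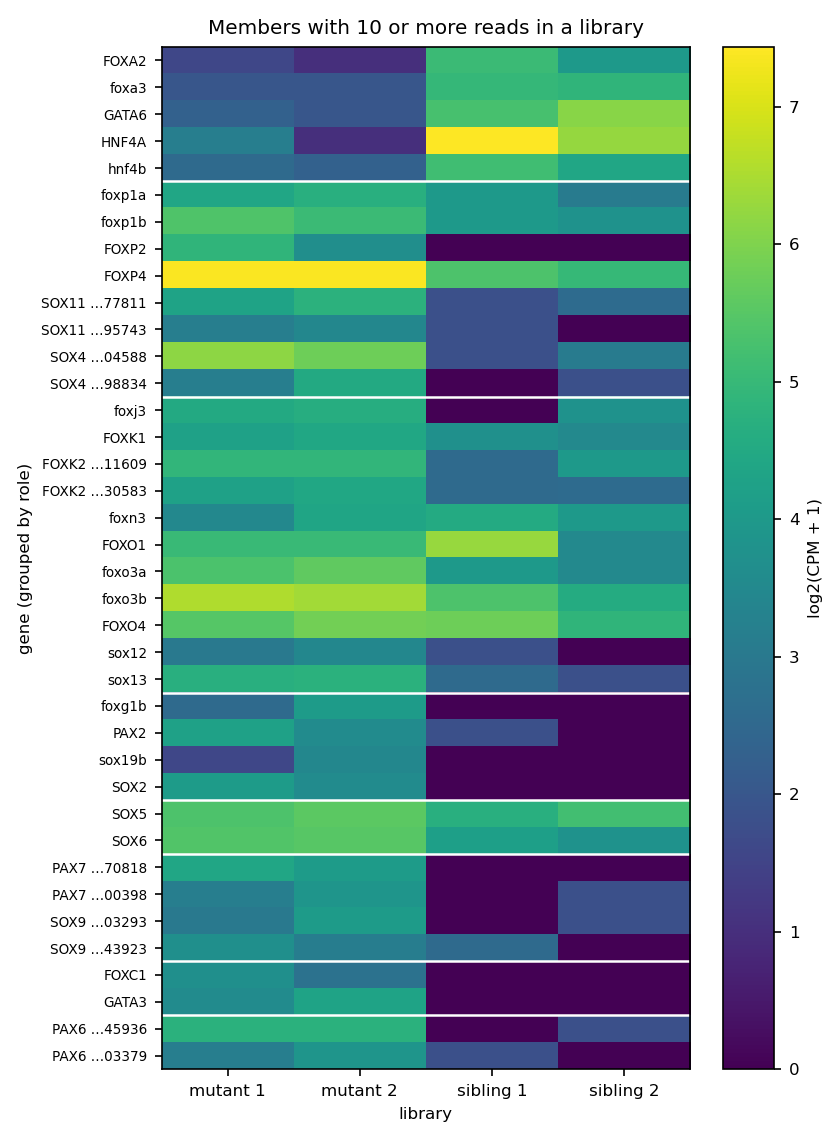
Colour scale of log2(CPM + 1) for 38 members with 10 or more reads in a library, 1 column per library and white lines between groups of role. The upper 5 genes, of liver, gut and endoderm, are brighter in the sibling columns, and FOXP4 is the brightest row in the mutant columns.

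SoxD genes and several widely expressed Fox genes had reads in both groups and differed in how far they changed. SOX6, which acts in cartilage and in the choice of muscle fibre type, had 42 and 45 mutant reads against 7 and 5 and rose by 1.51 ± 0.42 (edgeR adjusted p = 0.00738). The related sox13 had 25 and 26 reads against 2 and 1 and rose by 2.69 ± 0.64 (edgeR adjusted p = 0.00263). SOX5, a partner of SOX6 in cartilage, had 40 and 47 reads against 10 and 14 and did not pass, at 0.51 ± 0.38 (edgeR adjusted p = 0.252). With total-read scaling SOX5 was called higher, at 2.17. These 3 genes stood beside cartilage and bone markers with 1356 and 1253 mutant reads against 4 and 11, whose part was not tested.

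The FoxO genes, effectors of insulin and starvation signals, did not move together. The copies foxo3a and foxo3b had 39 and 49, and 93 and 85, mutant reads. Against these stood 6 and 4, and 16 and 9, sibling reads. They rose by 1.78 ± 0.45 and 1.49 ± 0.38 (edgeR adjusted p = 0.00387 and 0.0044). FOXO4 had 44 and 57 reads against 22 and 11, and its CPM overlapped between groups (0.27 ± 0.39, edgeR adjusted p = 0.56), but it was at 1.88 with total-read scaling (edgeR adjusted p = 0.00407). FOXO1 (ENSDARG00000099555), which promotes glucose production in liver, had 32 reads in each mutant library, 31 in sibling replicate 1 and 4 in sibling replicate 2. Its log2 fold change was -0.46 ± 0.67 (edgeR adjusted p = 0.579), but -1.24 (adjusted p = 0.0122) without sibling replicate 2 and 1.67 (adjusted p = 0.05, just under the threshold before rounding) without sibling replicate 1. The direction of FOXO1 therefore rests on which sibling library is read.

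The FoxK genes, which restrain autophagy genes in mammals, summed to 65 and 71 mutant reads against 9 and 12. The FOXK2 copies ENSDARG00000011609 and ENSDARG00000030583 rose by 1.50 ± 0.54 and 1.91 ± 0.61 (edgeR adjusted p = 0.0273 and 0.016). Neither call was kept with DESeq2 (DESeq2 adjusted p = 0.15 and 0.149). When 1 library was left out the copies were at 0.95 to 2.53 and 1.92 to 2.11. FOXK1 was at 0.77 ± 0.51 (edgeR adjusted p = 0.205), but was called higher with total-read scaling (edgeR adjusted p = 0.00156). The forkhead gene foxj3 had 22 and 24 reads against 0 and 5 and rose by 1.83 ± 0.71 (edgeR adjusted p = 0.0399). It was not called with DESeq2 (DESeq2 adjusted p = 0.189). The related foxn3 had 10 and 20 reads against 9 and 6 and was at -0.34 ± 0.52 (edgeR adjusted p = 0.593). With ribosomal protein scaling all 23 tested members outside liver, gut and endoderm were called higher, FOXO1 and foxn3 included. Among all tested genes 79.2% were then called higher and 7.99% lower, and 1 member, HNF4A, was lower.

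**Figure D4:**
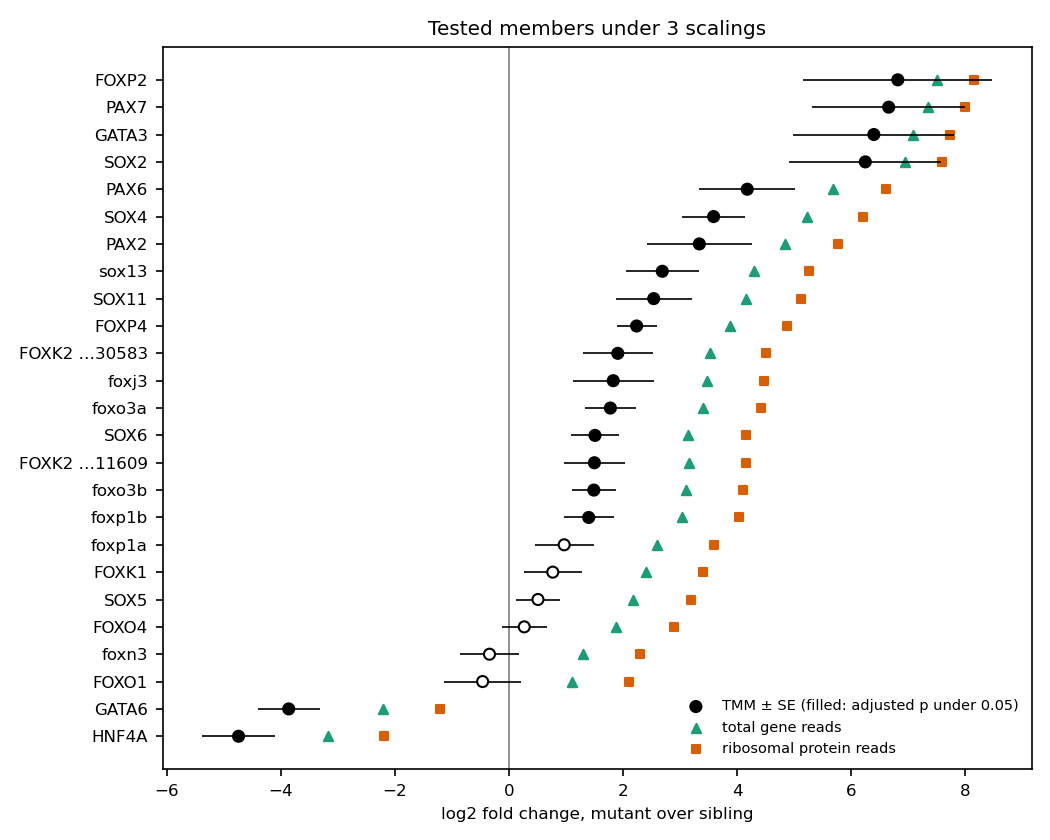
Log2 fold change, mutant over sibling, of the 25 tested members. Circles with SE bars use TMM and are filled where the adjusted p is under 0.05, triangles use total gene reads and squares use ribosomal protein reads. GATA6 and HNF4A are left of 0 in all 3, and FOXO1 and foxn3 change sides.

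Factors of blood, vessel, skin and pharynx had low counts. GATA3, used in T cells, ear and sympathetic neurons and named here after its values were seen, had 11 and 19 mutant reads and 0 in the siblings. That is at least 3.94-fold higher against the floor, and the gene was not called without the count filter (edgeR adjusted p = 0.0761). The erythroid factor gata1a was the single member with reads in siblings only, 2 and 1, beside red cell markers that had 81 and 64 mutant reads against 408 and 3302. The 5 FoxC and FoxF genes, of vessel wall and connective tissue, had 21 and 20 reads in sum against 0 and 3. The FoxI and FoxJ1 genes, of skin ionocytes and ciliated cells, had 13 and 16 against 1 and 0. Pax1 and Pax9, of the pharyngeal pouches and the vertebral column, had 7 in each mutant against 0. The SoxF genes of endothelium and endoderm had 9 and 5 against 4 and 2, and their log2 ratio changed sign with the scaling, from -0.11 with TMM to 1.45 with total reads.

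Over the 93 members with a read outside liver, gut and endoderm, 63 (67.7%) had higher CPM in both mutants than in either sibling and 1, gata1a, had lower, against 38.6% and 22.6% of all genes with a read. As unscaled shares 71 (76.3%) were higher and 1 lower, against 61.3% and 8.87%. A read in both mutants with none in either sibling was seen for 35 of them (37.6%), and for 19.3% of all genes with a read. The Gata family as a whole gave no stable direction, at -1.44 with TMM, 0.23 with total reads and 1.25 with ribosomal protein scaling, since it holds both GATA6 and GATA3. With DESeq2 10 of 107 fitted members were higher and 6 lower. Among the 12506 genes that kept an adjusted p, 12.8% were called higher and 12.4% lower. How many members kept an adjusted p was not counted, so these shares have another base. The lower members included HNF4A, GATA6, FOXA2 and foxa3.

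Regulators of other families were read from 3 lists, which were not compared with the members by a test. Of 25 other regulators of liver, gut and pancreas 11 were tested, of which 5 fell and 3 rose (25.8% and 35.2% of all tested genes). The 3 that rose, ISL1, NEUROD1 and TCF7L2, passed the count filter through their mutant counts alone. Of the 5 that fell, 1 passed through its sibling counts alone and 4 reached the cutoff in a library of each group. Summed reads of the 25 changed sign with the scaling. They were at -1.13 with TMM, 0.51 with total reads and 1.52 with ribosomal protein scaling (log2 ratio of group means). NR0B2, a nuclear receptor that limits bile acid synthesis, had 7 reads in each mutant library against 16 and 29 and fell by 2.99 ± 0.46 (edgeR adjusted p = 0.000114), but with ribosomal protein scaling it was at -0.32 (edgeR adjusted p = 0.549). KLF15, PROX1 and NR5A2 fell too, at -2.47, -2.44 and -2.50. They were not called with total reads, and with ribosomal protein scaling they were at 0.14, 0.19 and 0.15. Of 59 other regulators of nerve and eye 9 were tested, all through their mutant counts alone, so that a fall could hardly be seen. Of the 9, 7 were called higher, against 2652 of all 4597 tested genes that passed through mutant counts alone. Of the 7, 6 had no sibling read, and all 776 tested genes without a sibling read were called higher. The zinc finger genes MYT1 (ENSDARG00000074030) and ZIC1 had 20 and 32, and 18 and 25, mutant reads and 0 in the siblings. The second MYT1 copy (ENSDARG00000102879) had 28 and 29 reads against 0 and 1, and the brain gene pou3f3b had 14 and 16 reads against 0. Of 60 other regulators of mesoderm, crest and skin 12 were tested, again through their mutant counts alone. Of the 12, 10 were called higher, beside the same 2652 of 4597 genes. Of the 10, 3 had no sibling read, where every tested gene was called higher. These 3 are the next named. MEF2C (ENSDARG00000029764) of muscle had 65 and 42 reads against 0, TFAP2A of crest and skin 46 and 28 against 0, and TP63 of basal skin 16 and 13 against 0. TFAP2C had 44 and 41 reads against 6 and 1, at 2.24 ± 0.54 on the log2 scale.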

How the data were processed

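Total RNA of 4 libraries was summarised as reads per Ensembl gene. The authors deposited a column of gene counts for each library, taken here to be unnormalised read counts. The submitters' processing notes name TopHat2, HTSeq, DESeq2 and GRCz10 and give no version. The use of strand and of reads that map to several places is not given in the sources used here, so reads may be split wrongly between duplicate copies of a factor. Symbols were matched by identifier (26121 of 31953 genes). Protein, promoter and positional data were not used here.

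Genes were tested with edgeR 4.0.16 (quasi-likelihood, robust, TMM, default count filter with a minimum count of 10, R 4.3.3) and Benjamini-Hochberg adjustment at 0.05. TMM factors were 1.75 and 1.79 for mutants and 0.656 and 0.485 for siblings, so that 1 read equals 0.998, 0.987, 2.49 and 2.54 CPM. A group at 0 was given a floor of 3 reads over both libraries. A fold given as at least is the mean mutant CPM, with TMM, over that floor. It allows for the counting error of the 0 only, not for error in the mutant counts or spread between libraries. DESeq2 1.42.0, other scalings (total reads, DESeq2 size factors, 76 ribosomal protein genes), no count filter, a replicate block and leaving out each library were alternatives. The test was also run on simulated counts with known changes, in well-read genes and equally in both directions. That setting is milder than these libraries. It therefore does not vouch for calls on low counts or under a shift in tissue makeup.

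Members, roles and lists were chosen with earlier results of these data known. The roles follow textbook knowledge only broadly and leave 3 members without one. Some members could be placed otherwise, such as foxh1 (under blood, immune and vessel) and pax4, FOXL2 and foxe1 (under eye and lens). Of these, foxh1 had 2 and 0 mutant reads against 3 and 0, foxe1 had 1 mutant read, and the others had none. Named members are those of liver, gut and endoderm, the 30 with the highest mean CPM, and any called member with a sibling read, with the 4 smallest p per list of other regulators; some members are counted but not reported singly here; others named are said to be so or were named to describe a subfamily. Intervals are Wilson 95% intervals.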

Additional observations from a re-analysis of the deposited data

How the results depend on the processing

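With total-read scaling 5497 genes were higher and 1022 lower and with ribosomal protein scaling 6442 and 650, against 2861 and 2102 with TMM, and the median log2 fold change of all tested genes moved from 0.48 to 2.12 and 3.12. Ribosomal protein genes took 3.25% and 3.17% of reads in mutants and 6.42% and 6.60% in siblings. Members lower numbered 1 with ribosomal protein scaling and 6 with DESeq2. Members higher numbered 11 with no count filter and 10 with DESeq2. Changed genes numbered 3002 with no filter and 3151 with DESeq2, against 4963. Other regulators lower, 5 in the main result, numbered 1 with total reads and 0 with ribosomal protein scaling, and those higher, 20, numbered 8 with no filter and 10 with DESeq2. Leaving out a library gave 1333 to 4631 changed genes, 1 to 14 members higher, 1 to 8 lower, 0 to 19 other regulators higher and 1 to 8 lower. The share of reads for the members, 0.201% in mutants and 0.0453% in siblings, was 0.216% and 0.0638% when liver, pancreas, red cell and muscle genes left the total. In sibling replicate 2, where those genes took 36.0% of reads, it moved from 0.0305% to 0.0477%. Values that changed sign were foxn3, at -0.34 (1.3 with total reads, 2.30 with ribosomal protein scaling, 0.03 with DESeq2, and from -0.77 to 0.18 when a library was left out), FOXO1 (1.1 with total reads, 2.10 with ribosomal protein scaling, from -1.24 to 1.67 when a library was left out), FOXO4 (from -0.09 without sibling replicate 2 to 0.88 without sibling replicate 1), and PROX1, NR5A2 and KLF15 (0.19, 0.15 and 0.14 with ribosomal protein scaling). The cause was not tested. Whether the replicate numbers pair the samples is not known. The difference between replicates 1 and 2 correlated at 0.0425 between groups across tested genes. This cannot decide it, because the mutant pair differed by little more than counting error. Its chi-square per degree of freedom was 1.31, against 35.5 for the sibling pair. With the replicate block 4569 genes changed, and 17 members were higher and 2 lower, the same genes as without it. Scaling by DESeq2 size factors called the same members. The count filter set 95 members aside; without it 107 members were fitted, and 2 of those set aside were called, both lower.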
